A study of Drosophila melanogaster with 8 samples.

Results

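The change in gene expression from ZT2 to ZT14 was compared between clock neurons and neurons of all kinds from the fly brain. The quantity compared was the interaction: the log2 fold change from ZT2 to ZT14 in clock neurons minus the same log2 fold change in all neurons. A negative interaction means that a gene fell more, or rose less, in the clock neurons. All 8 libraries of the series entered, and 8926 of 17868 genes passed the filter on low counts and were tested. Neurons were labeled with EGFP under the clk856-GAL4 driver (clk856 > EGFP), which is active in most clock neurons, or under the nSyb-GAL4 driver (nSyb > EGFP), which is active in neurons generally. The nSyb driver therefore labels clock neurons too, as a part of all neurons. Flies were males about 2 weeks old, kept in a cycle of 12 h light and 12 h dark without further treatment. ZT (Zeitgeber time) counts the hours from lights on, so that ZT2 falls early in the day and ZT14 early in the night. Brains of many flies were pooled, and GFP-positive cells were collected by FACS, fewer per library for clk856 than for nSyb. Each population had 2 libraries (R1 and R2) at each time.

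The fly clock is a transcriptional feedback loop. CLK and CYC activate period (per), timeless (tim), vrille (vri), Pdp1 and clockwork orange (cwo), and the PER and TIM proteins later repress CLK and CYC. The transcripts of tim, per and vri peak around dusk in clock cells, and those of Clk and cry peak around dawn. Many other brain genes follow light, sleep, temperature or neuronal activity, and such changes need not be the same in the clock network as in other neurons. An interaction test addresses this question, because a change that is equal in both populations cancels.

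A clk856 library held between 4823985 and 8439193 reads on genes, and an nSyb library between 7970236 and 8449829. The spread between R1 and R2 was larger in nSyb. The biological coefficient of variation (the relative spread between replicates that edgeR estimates beyond counting error) was 0.465 when the clk856 libraries were fitted alone, 0.909 for nSyb alone and 0.725 for the joint fit used here. Among genes at a group mean of at least 10 CPM (reads scaled to the size of the library), 1 of the 2 replicates was at or under 3 reads for 0.120% of genes in clk856 at ZT14, 0.483% in clk856 at ZT2, 2.43% in nSyb at ZT14 and 4.10% in nSyb at ZT2. The neurons of a dissociated sample were collected as 2 sets. Whether R1 and R2 of a group are such sets, and so share a dissociation, is not stated, and the p values measure the spread between these libraries, which may be technical. Brains were dissected separately at each time, and session and time cannot be told apart. Summed over 7 neuronal markers, levels were 7021 to 9552 CPM in all libraries. The 6 clock neuron markers summed to 669 to 2942 CPM in clk856 and to 23.5 to 113 CPM in nSyb. Summed glial markers were 87.7 to 151 CPM in clk856 and 148 to 401 CPM in nSyb, and overlapped between times in nSyb only. The hemocyte markers summed to 7.63 and 32.3 CPM in the clk856 libraries at ZT14 and to at most 0.115 CPM in the other 6 libraries, and those of photoreceptors to 25.2 CPM in R1 of clk856 at ZT2, 0.220 to 4.22 CPM in the other clk856 libraries and at most 0.116 CPM in nSyb. In a longer list of photoreceptor genes, 3 of 9 tested were lower and 0 higher at ZT14 in clk856 at p under 0.05, where 1.18% of all genes were lower. Of the 6 summed photoreceptor markers, only Arr2 was at or under 3 reads in all clk856 libraries. In nSyb all 6 were at or under 3 reads in every library. The part of these markers in the results below was not tested.

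Over the whole transcriptome the measured time effects of the populations showed no common direction. Of the 8400 genes over 3 reads in at least 1 library of each population, 4133 (49.2%) changed in the same direction and 4267 in opposite directions. Across these genes, which are not independent replicates, Pearson's r between both log2 fold changes was 0.03 and Spearman's rho was -0.01. Restricting the count to the 6225 genes over 3 reads in every library gave 48.7% in the same direction and a Pearson's r of -0.05. No library is shared between these time effects, although the gene-wise spread is. Spread between replicates, which was larger in nSyb, weakens such a correlation, so that a shared time effect could have been missed.

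The measured differences between times were larger in the population with the larger spread. For the same 6225 genes the median absolute difference between times was 0.22 on the log2 CPM scale in clk856 and 0.31 in nSyb. The median absolute difference between R1 and R2 was 0.21 in clk856 at ZT14, 0.30 in clk856 at ZT2, 0.39 in nSyb at ZT14 and 0.48 in nSyb at ZT2. These measures cannot be compared directly, because a group mean varies less than a single library even without a time effect. How far the differences between times exceed the spread between replicates was not tested.

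**Figure D1:**
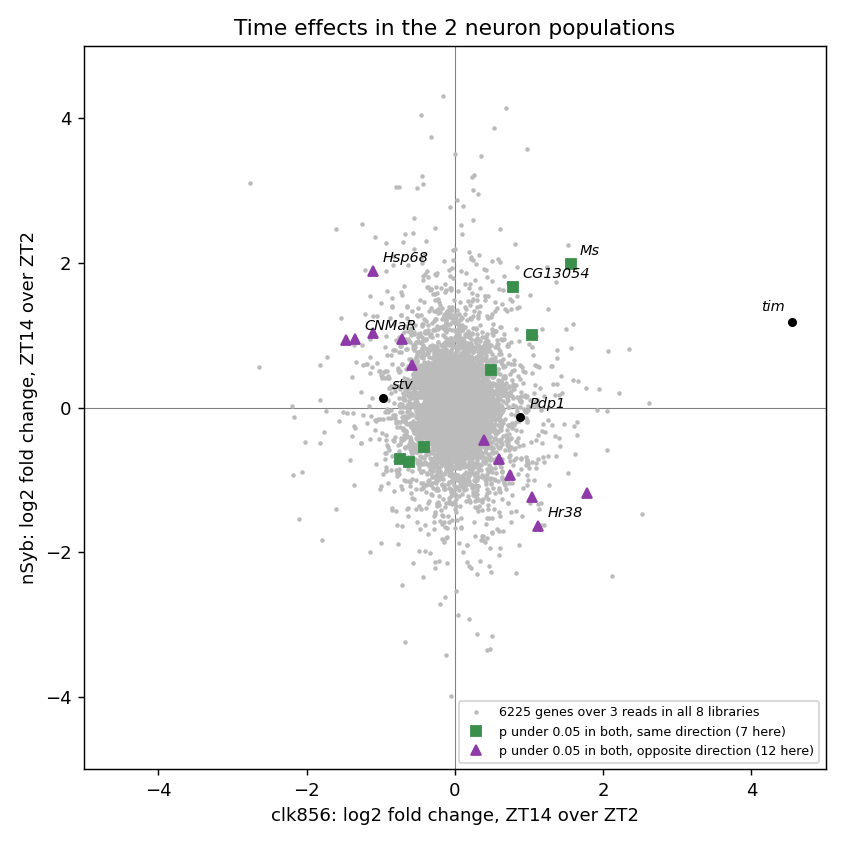
Log2 fold change from ZT2 to ZT14 in clk856 (horizontal axis) against nSyb (vertical axis) for the 6225 genes over 3 reads in all 8 libraries, 1 point per gene. Squares and triangles mark genes with an unadjusted p under 0.05 in both populations and the same (7 genes) or opposite (12 genes) direction. The cloud has no slope and is taller than it is wide, tim stands apart to the right, Hsp68 lies at upper left and Ms at upper right.

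One gene, Hsp68, had an interaction that passed the threshold of an adjusted p of 0.05 over all genes tested with edgeR's quasi-likelihood test, which is 0.0112% of genes. At an unadjusted p under 0.05 the interaction was positive for 199 genes (2.23%) and negative for 301 genes (3.37%). The nSyb time effect was the larger of both in 412 of these 500 genes. For time in nSyb 353 of them also had p under 0.05, against 67 for time in clk856. Selection on the interaction favors large effects in the population with the larger spread, and the fit shares a single spread. These numbers therefore describe the selected genes only. In the clk856 time contrast tim and vri passed the adjusted threshold (0.0224% of genes), and at an unadjusted p under 0.05 there were 92 genes higher at ZT14 (1.03%) and 105 lower (1.18%). The nSyb contrast gave 517 genes higher (5.79%) and 438 lower (4.91%) at that level and 0 at the adjusted level. The lowest adjusted p from edgeR was 0.303. The counts of both time contrasts rest on a single spread shared by the populations. With each population fitted alone, 673 of 8188 genes in clk856 and 393 of 7671 in nSyb had p under 0.05. Voom with population weights (limma) gave 765 in clk856 and 410 in nSyb, so that the order of the populations was reversed. The number of nSyb genes past the adjusted threshold was 159 with edgeR's likelihood ratio test and 418 with DESeq2, and the corresponding interaction counts were 85 and 178.

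Hsp68 encodes an inducible member of the Hsp70 family of chaperones, which bind unfolded proteins during stress. The gene lies on chromosome 3R, 24055080 to 24057310 of dm6. In clk856 neurons it was expressed at 783 and 917 CPM at ZT2 and at 363 and 424 CPM at ZT14. In nSyb neurons it was expressed at 30.6 and 31.3 CPM at ZT2 and at 121 and 110 CPM at ZT14. Within each population the times did not overlap, and the direction was opposite: Hsp68 was 2.16 times higher at ZT2 in clk856 and 3.72 times higher at ZT14 in nSyb. All clk856 libraries were above all nSyb libraries. The log2 fold change was -1.10 (standard error 0.16) in clk856 and 1.89 (standard error 0.27) in nSyb, and the interaction was -3.0 (standard error 0.31, adjusted p = 0.0332 with edgeR). An exact permutation of the time labels within each population gave p = 0.0556, two-sided, the smallest that 36 labelings allow. In this and all other bulk comparisons, fewer cells of a type and less RNA per cell cannot be told apart. The interaction of Hsp68 stayed between -3.11 and -2.88 over 20 alternatives. Its adjusted p passed the threshold in 9 of them and in none of the 8 fits that left out 1 library. The adjusted p was 0.828 with limma's voom and population weights, and 0.344 with edgeR and a replicate block within each population.

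Besides Hsp68, 4 of the heat shock genes had an interaction with an unadjusted p under 0.05, and all were negative. Of 22 tested heat shock proteins and chaperones, 18 had a negative interaction, against 49.5% of all genes tested, and 5 of them were at an unadjusted p under 0.05 (Hsp68 included), against 3.37% of all genes. Of the 4 members with a positive interaction 0 were at that level. The time effects of 13 members were negative in clk856 and positive in nSyb, and those of 8 members had the same sign in both populations. The median interaction of the list was -0.44, against 0.01 over all genes tested. In nSyb 5 members were higher at ZT14 and 0 lower at p under 0.05, where 5.79% of all genes were higher, while in clk856 0 were higher and 2 lower, where 1.18% of all genes were lower. Both clk856 libraries at ZT2 exceeded both at ZT14 for 13 of the 22 members, against 17.2% of all genes tested. Both nSyb libraries at ZT14 exceeded both at ZT2 for 9 members, against 15.5% of all genes. Over 20 alternatives the median interaction of the list ranged from -0.58 to -0.28, and 4 to 6 members passed p under 0.05. The list was chosen with earlier results of these data known. Its members were measured in the same libraries and are not independent replicates.

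The small heat shock proteins Hsp26 and Hsp23 hold unfolded proteins in a soluble state without using ATP. Hsp26 was expressed at 1155 and 935 CPM at ZT2 and 695 and 847 CPM at ZT14 in clk856, and at 175 and 170 CPM at ZT2 and 227 and 374 CPM at ZT14 in nSyb. The times did not overlap in either population, and the interaction was -1.25 (standard error 0.33, unadjusted p = 0.00422). Hsp23 was expressed at 1029 and 1073 CPM at ZT2 and 751 and 983 CPM at ZT14 in clk856, and at 182 and 124 CPM at ZT2 and 204 and 242 CPM at ZT14 in nSyb. Its interaction was -0.82 (standard error 0.29, unadjusted p = 0.0208). Hsp27, a further small heat shock gene, had an interaction of -1.18 (standard error 0.60) that did not pass this level, and its nSyb libraries overlapped between times.

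The remaining members at this level act within the Hsp70 system. The gene starvin (stv) encodes a BAG-domain cochaperone of Hsp70. Its level in clk856 was 378 and 343 CPM at ZT2 and 169 and 201 CPM at ZT14, a fall of 1.95-fold. In nSyb it was 115.1 and 91.3 CPM at ZT2 and 102 and 123 CPM at ZT14, and the times overlapped. Of its interaction of -1.10 (standard error 0.32, unadjusted p = 0.00701), the clk856 time effect was -0.97. Hsc70-4, the constitutive Hsp70 cognate, was expressed at 1674 and 1684 CPM at ZT2 and 1489 and 1457 CPM at ZT14 in clk856. In nSyb its level was 1474 and 1597 CPM at ZT2 and 1748 and 1936 CPM at ZT14. Its differences were small but did not overlap, with an interaction of -0.45 (standard error 0.15, unadjusted p = 0.013).

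The other members of the list had no interaction with p under 0.05. Hsp60A of the mitochondrial matrix had an interaction of -0.05 (standard error 0.17), Hsc70-3 of the endoplasmic reticulum one of 0.08 (standard error 0.27), and Hsc70-5 of mitochondria one of -0.15 (standard error 0.35). Hsp83, the fly Hsp90, had an interaction of -0.29 (standard error 0.17). Further genes of the Hsp70 system also had interactions near 0. These were 0.02 (standard error 0.40) for Hsc70Cb, 0.01 (standard error 0.26) for Droj2 and -0.15 (standard error 0.29) for DnaJ-1. The 6 tested copies of Hsp70 itself had interactions between -2.03 and -0.40, none with p under 0.05. These copies are nearly identical in sequence, so that the share of reads assigned to each is uncertain.

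**Figure D2:**
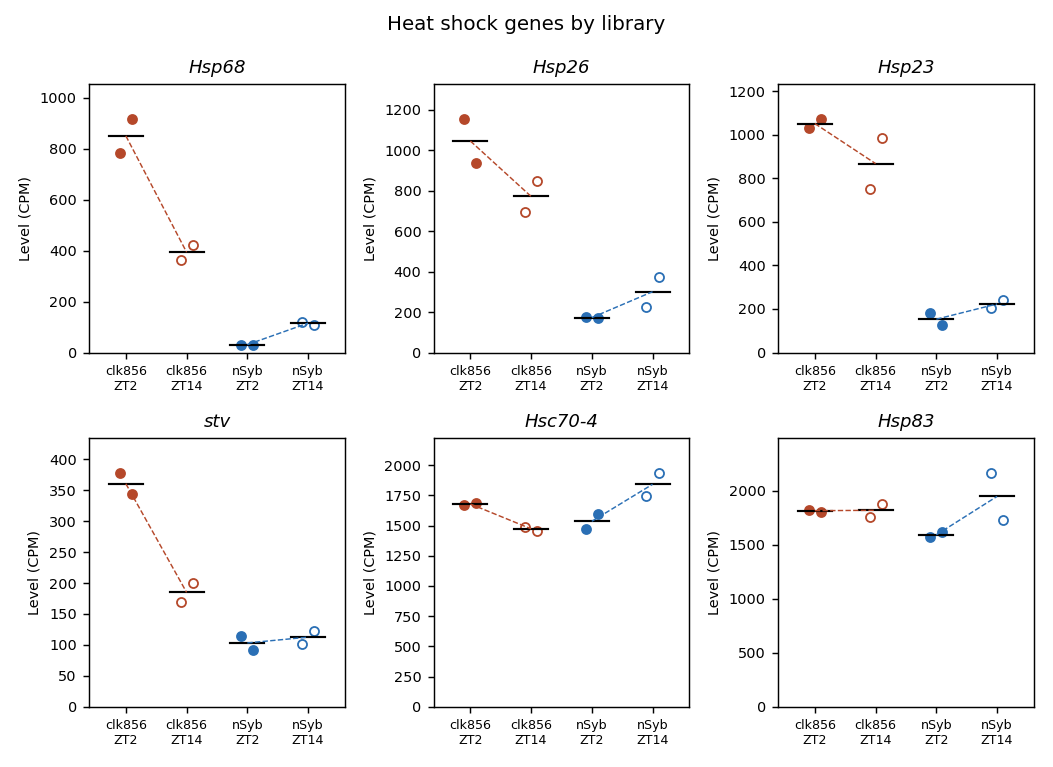
Levels of 6 heat shock genes in CPM in each of the 8 libraries (points, filled at ZT2 and open at ZT14), with group means as black bars and dashed lines joining the times of a population. For Hsp68, Hsp26, Hsp23 and Hsc70-4 the clk856 line falls and the nSyb line rises. For stv only the clk856 times are separate, and for Hsp83 the clk856 mean is level.

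In clk856 the time effects of tim, vri and Clk were over 2-fold, those of Pdp1, per and cry were under 2-fold without overlap between times, and cwo and cyc overlapped. Among the 5 targets of CLK and CYC on the list, the interaction was positive for tim, vri, per and Pdp1 and negative for cwo. The interaction had p under 0.05 for tim and Pdp1, against 5.60% of all genes tested, and passed the adjusted threshold for none of the 5. In clk856 tim was expressed at 39.1 and 63.5 CPM at ZT2 and at 1093 and 1174 CPM at ZT14. In nSyb it was at 8.02 and 17.2 CPM at ZT2 and at 5.98 and 50.8 CPM at ZT14. R1 and R2 of nSyb at ZT14 thus fell on either side of both ZT2 libraries. The interaction of tim was 3.36 (standard error 1.08, unadjusted p = 0.0119, adjusted p = 0.833 with edgeR), and was 5.63 without R2 of nSyb at ZT14 and 2.56 without R1. Of the exon bases of tim 9.89% lie within exons of other genes.

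Pdp1, a bZIP activator of Clk transcription, had the most precise interaction among the core clock genes. It was expressed at 1309 and 1394 CPM at ZT2 and at 2498 and 2487 CPM at ZT14 in clk856. In nSyb the levels were 689 and 791 CPM at ZT2 and 629 and 724 CPM at ZT14, which overlapped. Pdp1 rose 1.84-fold in clk856 at ZT14, its nSyb log2 fold change was -0.13 (standard error 0.12), and the interaction was 1.01 (standard error 0.17, unadjusted p = 2.0e-04, adjusted p = 0.833 with edgeR). The interaction of Pdp1 was between 0.92 and 1.13 in all 20 alternatives, and its adjusted p passed the threshold in 2 of them.

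For vri and per the nSyb libraries could not settle a direction. The bZIP repressor gene vri rose from 47.3 and 47.0 CPM to 609 and 552 CPM in clk856, but was at 0.116 and 1.26 CPM at ZT2 and 0.120 and 6.86 CPM at ZT14 in nSyb. Its interaction of 1.29 had a standard error of 2.63 and became -1.12 without nSyb R2 at ZT2. The level of per in clk856 was 58.2 and 71.6 CPM at ZT2 and 119 and 128 CPM at ZT14. In nSyb it was 25.7 and 2.07 CPM at ZT2 and 9.44 and 6.51 CPM at ZT14. The interaction of per was 1.76 (standard error 1.04) and became -0.95 without nSyb R1 at ZT2.

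The repressor gene cwo and cyc, which encodes the partner of CLK, were the core clock genes whose times overlapped in clk856. In clk856 cwo was expressed at 132 and 154 CPM at ZT2 and 137 and 157 CPM at ZT14, and in nSyb at 22.1 and 43.9 CPM at ZT2 and 79.4 and 50.7 CPM at ZT14. The level of cyc was 66.5 and 50.8 CPM at ZT2 and 66.0 and 71.7 CPM at ZT14 in clk856, and 39.8 and 66.4 CPM at ZT2 and 95.1 and 117 CPM at ZT14 in nSyb. Both genes were higher at ZT14 in nSyb without overlap, as were 15.5% of all genes, and overlapped between times in clk856. In nSyb the unadjusted p was 0.0427 for cwo and 0.0138 for cyc with edgeR (adjusted p = 0.456 and 0.399). Of all genes, 5.79% were higher at ZT14 in nSyb at an unadjusted p under 0.05. The interactions of -0.92 (standard error 0.52) for cwo and -0.81 (standard error 0.51) for cyc did not pass this level.

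Clk and cry peak in the morning in clock cells. Clk fell from 180 and 238 CPM to 31.1 and 36.4 CPM in clk856, a ratio of 6.20, while all 4 nSyb libraries were at or under 3 reads, so that no fold and no difference in time effect could be given for it. The photoreceptor gene cry, which resets the clock in light, was at 135 and 113 CPM at ZT2 and 56.9 and 101 CPM at ZT14 in clk856, and at 39.3 and 25.8 CPM at ZT2 and 8.01 and 48.3 CPM at ZT14 in nSyb. The times of cry were separate in clk856 and overlapped in nSyb. Its interaction was -0.48 (standard error 0.84) and became 1.35 without nSyb R2 at ZT14.

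**Figure D3:**
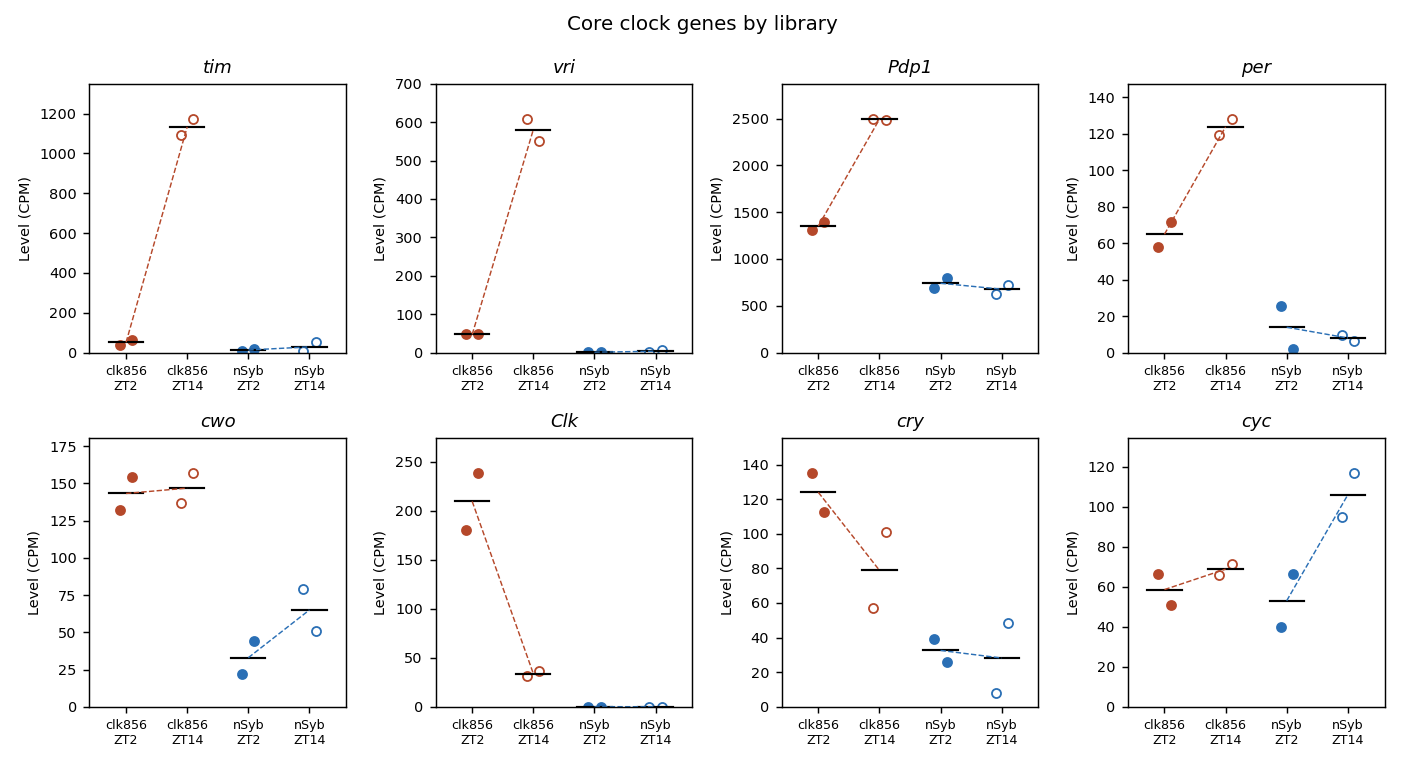
Levels of 8 core clock genes in CPM by library, drawn as points with group means as black bars (filled at ZT2, open at ZT14). In clk856 tim, vri, per and Pdp1 are higher at ZT14 and Clk and cry at ZT2 without overlap, while in nSyb cwo and cyc are higher at ZT14 and the other 6 genes overlap between times or lie at the floor.

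Opposition of the time effects was described with the genes that had an unadjusted p under 0.05 in both populations. There were 14 such genes with opposite directions (0.157% of genes tested). Of these, 8 rose in clk856 and fell in nSyb and 6 fell in clk856 and rose in nSyb. In either direction, 197 genes (2.21%) in clk856 and 955 genes (10.7%) in nSyb had p under 0.05. Lists of this size share genes even when unrelated, and whether 14 exceeds that number was not tested. Selection on both time effects fixes a large interaction and favors times without overlap. The interaction values and the separation of the times therefore describe the 14 genes and are not further support. Besides Hsp68, the genes that fell in clk856 were CNMaR, AstA-R1, Oamb, pdm3 and w. Those that rose in clk856 were Hr38, dpr3, tipE, Fis1, Gk2, Archease, l(3)72Dn and CBP. The values of Fis1 and pdm3 are given because all 14 genes are named, although they were not among the 10 with the largest effects.

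Hr38 encodes the fly NR4A nuclear receptor, whose transcription follows neuronal activity. It lies on chromosome 2L, 20683462 to 20714588. In clk856 it rose from 49.8 and 17.1 CPM at ZT2 to 67.6 and 95.3 CPM at ZT14, and in nSyb it fell from 178 and 144 CPM at ZT2 to 46.4 and 57.1 CPM at ZT14. The times did not overlap in either population: Hr38 was 2.43 times higher at ZT14 in clk856 and 3.11 times higher at ZT2 in nSyb. The interaction was 2.76 (standard error 0.57, adjusted p = 0.833 with edgeR) and ranged from 2.35 to 3.89 over 20 alternatives, of which 2 passed the adjusted threshold.

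Of 16 tested activity-regulated genes, 11 had a positive interaction, and Hr38 was the 1 gene with p under 0.05, a share near the 5.60% of all genes tested. The median of the list was 0.18, and 50.5% of all genes tested had a positive interaction. The Egr-family gene stripe (sr) was at 72.2 and 62.4 CPM at ZT2 and 113 and 58.4 CPM at ZT14 in clk856, and at 24.2 and 48.1 CPM at ZT2 and 15.3 and 25.2 CPM at ZT14 in nSyb, and overlapped in both populations. The AP-1 genes kay and Jra had interactions of 0.58 (standard error 0.46) and 0.32 (standard error 0.48). The CREB gene CrebB had an interaction of the other sign, -2.16 (standard error 1.02, unadjusted p = 0.0607).

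Among the genes that fell in clk856 and rose in nSyb, 3 encode receptors for neuromodulators. CNMaR, the receptor of the peptide CNMamide, lies on chromosome 3L, 9644109 to 9659433. It fell from 125 and 131 CPM to 47.7 and 52.9 CPM in clk856, and rose from 88.8 and 73.3 CPM to 108 and 203 CPM in nSyb. The clk856 replicates lay close together and the nSyb replicates at ZT14 did not. The interaction was -2.29 (standard error 0.52, unadjusted p = 0.00158), and ranged from -2.64 to -1.76 over 20 alternatives.

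AstA-R1, a receptor of the peptide allatostatin A, fell from 121 and 166 CPM to 57.8 and 72.5 CPM in clk856 and rose from 36.3 and 89.9 CPM to 145 and 114 CPM in nSyb. Oamb, a receptor of octopamine, fell from 204 and 292 CPM to 132 and 162 CPM in clk856 and rose from 59.4 and 55.7 CPM to 101 and 121 CPM in nSyb. None of these groups overlapped between times. The interactions were -2.13 (standard error 0.57) for AstA-R1 and -1.67 (standard error 0.40) for Oamb. Of 35 tested neuropeptide receptors 3 had an interaction with p under 0.05 (CNMaR, AstA-R1 and the CCAP receptor), all negative, against 3.37% of all genes, and the median over the list was -0.13. Among 17 tested amine receptors Oamb was the 1 gene at that level, a share near the 5.60% of all genes, and the list had a median of 0.08.

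The POU-domain transcription factor gene pdm3 fell from 235 and 195 CPM to 127 and 164 CPM in clk856 and rose from 116 and 120 CPM to 175 and 181 CPM in nSyb. The ABC transporter gene white (w), which moves eye pigment precursors, fell from 74.9 and 85.0 CPM to 12.7 and 44.0 CPM in clk856 and rose from 153 and 204 CPM to 416 and 265 CPM in nSyb. A mini-white marker is carried by many fly transgenes, and counts on w cannot separate such a marker from the endogenous gene. The photoreceptor markers were highest in R1 of clk856 at ZT2, in which w was lower than in R2, and their part in the fall of w was not tested.

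The genes with the reverse pattern had varied functions. The gene dpr3, which encodes an immunoglobulin-domain protein of the neuron surface, rose from 120 and 130 CPM to 220 and 195 CPM in clk856 and fell from 153 and 74.5 CPM to 55.7 and 62.7 CPM in nSyb. The gene tipE, which encodes an auxiliary subunit of the voltage-gated sodium channel, rose from 160 and 164 CPM to 279 and 210 CPM in clk856 and fell from 128 and 175 CPM to 88.3 and 97.1 CPM in nSyb. The mitochondrial fission gene Fis1 rose from 390 and 377 CPM to 542 and 472 CPM in clk856 and fell from 676 and 747 CPM to 530 and 512 CPM in nSyb. All 3 were separate between times in both populations, and 19% of the exon bases of tipE lie within exons of other genes.

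The other 4 genes with this pattern were Gk2, Archease, l(3)72Dn and CBP. Gk2, a glycerol kinase, rose from 19.2 and 1.32 CPM to 51.1 and 36 CPM in clk856 and fell from 76.2 and 57.9 CPM to 32.5 and 26.5 CPM in nSyb. Archease rose from 26.3 and 23.3 CPM to 50.2 and 53.5 CPM in clk856 and fell from 50.1 and 48.5 CPM to 24.5 and 17.4 CPM in nSyb. For l(3)72Dn the clk856 levels were 7.07 and 0.439 CPM at ZT2 and 44.2 and 27.5 CPM at ZT14, and the nSyb levels were 77.2 and 101 CPM at ZT2 and 18.9 and 37.6 CPM at ZT14. CBP had 0 reads in both clk856 libraries at ZT2 and 11.1 and 8.30 CPM at ZT14, at least 18.8 times the level of 3 reads per library, and fell from 62.8 and 82.7 CPM to 44.1 and 31.1 CPM in nSyb.

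**Figure D4:**
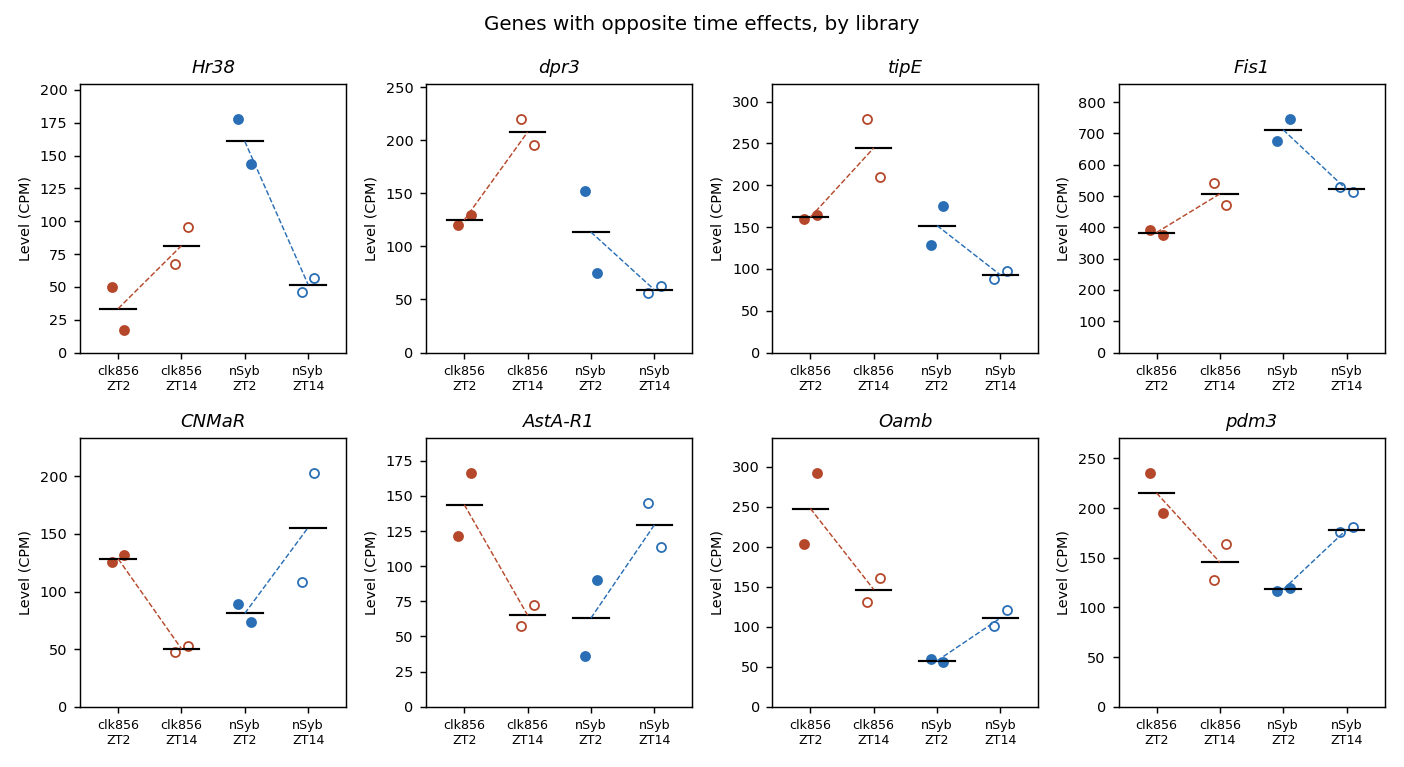
Levels in CPM by library of 8 genes with opposite time effects (points filled at ZT2 and open at ZT14, group means as black bars). In the upper row (Hr38, dpr3, tipE, Fis1) the clk856 lines rise and the nSyb lines fall, and in the lower row (CNMaR, AstA-R1, Oamb, pdm3) the directions are exchanged. Within a population, no ZT2 library overlaps a ZT14 library in any panel, which the selection on both time effects favors.

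Agreement was described in the same way. In 12 genes (0.134% of genes tested) both time effects had an unadjusted p under 0.05 and the same direction, 5 higher and 7 lower at ZT14. Whether 12 exceeds the overlap of unrelated lists was not tested either. Selection for the same direction favors small interactions and times without overlap, so that neither is further support. The absolute interaction of the 12 genes ranged from 0.03 to 6.26, and 0 had an interaction with p under 0.05. A time effect averaged over both populations had p under 0.05 for 446 genes, 247 higher at ZT14 (2.77%) and 199 lower (2.23%), and passed the adjusted threshold for 0, with a lowest adjusted p of 0.153 in edgeR, for Ms. The number past the adjusted threshold was 90 with the likelihood ratio test and 172 with DESeq2.

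Ms encodes myosuppressin, a peptide that inhibits visceral muscle contraction in insects and is made by neurosecretory cells. It lies on chromosome 3R, 24341551 to 24343825. In clk856 it rose from 225 and 189 CPM at ZT2 to 541 and 696 CPM at ZT14, and in nSyb from 70.1 and 36.9 CPM to 258 and 167 CPM. The rise was 2.99-fold in clk856 and 3.97-fold in nSyb, without overlap in either population. The interaction of Ms was -0.43 (standard error 0.45), and the mean log2 fold change was 1.78 (1.58 to 2.04 over 20 alternatives, 3 of which passed the adjusted threshold). Counting only genes over 3 reads in all 8 libraries, Ms was the 1 gene past the adjusted threshold for the mean time effect. That filter was added after seeing the data, and the other filters and normalizations gave 0 such genes.

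The other 4 genes that rose in both populations were CG13054, fd59A, CG9170 and MCPH1. CG13054, a gene without an assigned function, rose from 297 and 249 CPM to 461 and 493 CPM in clk856 and from 8.72 and 17.1 CPM to 38.5 and 44.0 CPM in nSyb. The forkhead transcription factor gene fd59A rose from 32.0 and 33.8 CPM to 54.3 and 79.7 CPM in clk856 and from 26.9 and 45.1 CPM to 68.1 and 76.7 CPM in nSyb, ratios of 2.03 and 2.01. CG9170 rose from 259 and 286 CPM to 394 and 364 CPM and from 177 and 173 CPM to 263 and 239 CPM. All 3 were separate between times in each population. MCPH1 was at or under 3 reads in all 4 libraries at ZT2. At ZT14 it was at 9.61 and 5.68 CPM in clk856, at least 14.8 times the level of 3 reads per library, and at 4.42 and 5.60 CPM in nSyb, at least 14.5 times that level.

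The 7 genes lower at ZT14 in both populations included the Sox transcription factor gene SoxN, which fell from 173 and 209 CPM to 99.6 and 145 CPM in clk856 and from 218 and 180 CPM to 104.5 and 131 CPM in nSyb. CG2889 fell from 91.2 and 127 CPM to 54.9 and 71.2 CPM in clk856 and from 167 and 155 CPM to 91.8 and 106 CPM in nSyb. The microtubule-associated gene ringer fell from 390 and 364 CPM to 291 and 275 CPM and from 416 and 431 CPM to 252 and 330 CPM. Their interactions of 0.14 for SoxN, -0.04 for CG2889 and 0.12 for ringer were all within 1 standard error of 0, which the selection favors. Ugt35B1, Spindly, CG5160 and mthl14 had larger folds, with at most 1.60 CPM in any nSyb library at ZT14, and mthl14 had 0 reads in 1 of 2 libraries in 3 groups. The interaction was 6.26 (standard error 5.07) for Ugt35B1 and 0.72 (standard error 2.07) for Spindly. It was 2.71 (standard error 2.59) for CG5160 and 1.04 (standard error 4.71) for mthl14.

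**Figure D5:**
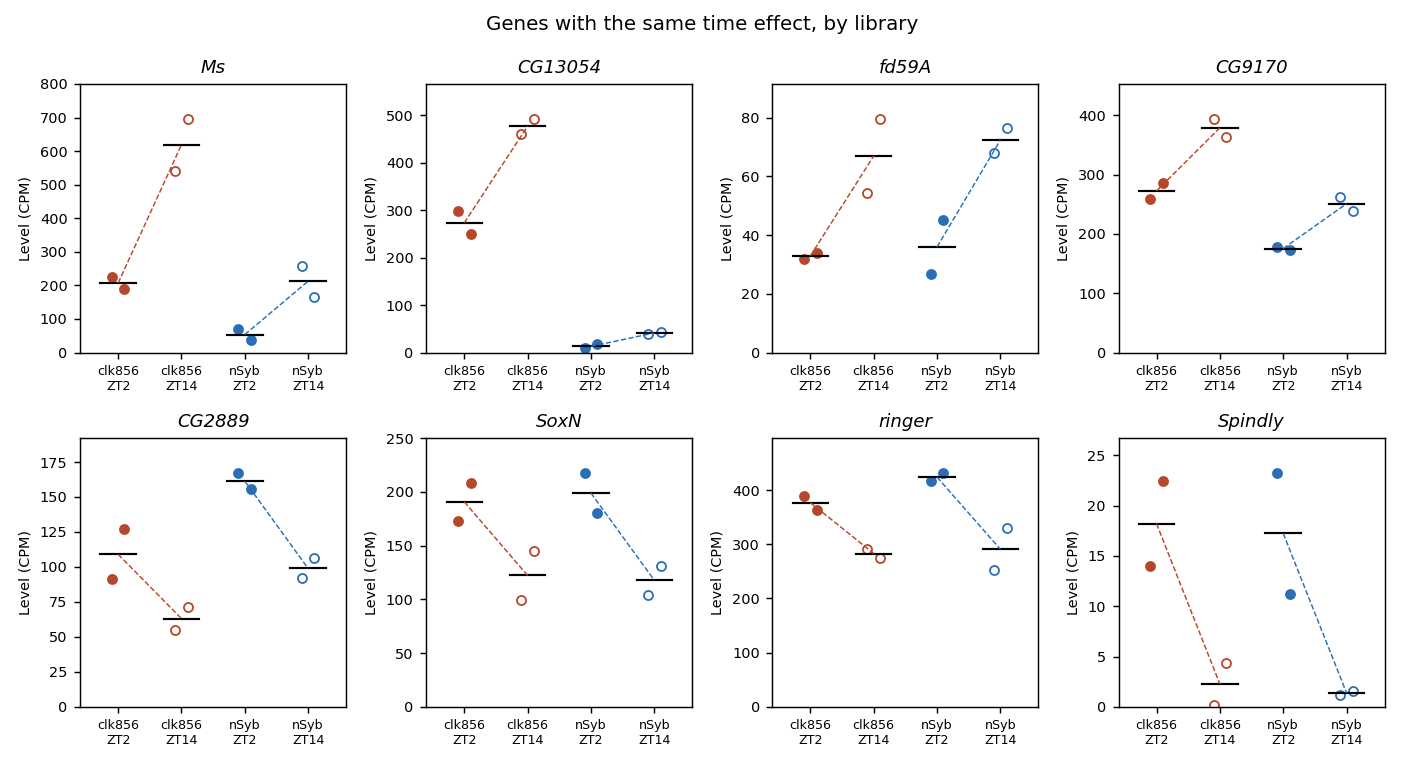
Levels in CPM by library of 8 genes with the same time effect in both populations (points filled at ZT2 and open at ZT14, group means as black bars). Ms, CG13054, fd59A and CG9170 rise in both, and CG2889, SoxN, ringer and Spindly fall in both, without overlap between times. The selection on both time effects favors such separation.

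The interactions of greatest size came mostly from genes absent from 1 nSyb group. Of the 500 genes with p under 0.05, 100 had both libraries of an nSyb group at or under 3 reads, 19 had a clk856 group there and 396 had neither. Of the 20 genes with the 10 highest and 10 lowest interactions at a mean of at least 10 CPM, all but CBP had 0 reads in both nSyb libraries of 1 time. The chitinase-like gene Idgf3 was at 0 in nSyb at ZT2 and at 14.5 and 15.1 CPM at ZT14, at least 42.6 times higher, while in clk856 it went from 23.1 and 25.7 CPM to 13.4 and 16.2 CPM. Top3alpha, a DNA topoisomerase gene, was at 0 in nSyb at ZT2 and at 16.9 and 32.2 CPM at ZT14, with 19.1 and 16.0 CPM at ZT2 and 25.8 and 16.9 CPM at ZT14 in clk856.

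The zinc transporter gene Zip48C, in contrast, was at 15.8 and 36.9 CPM in nSyb at ZT2 and at 0 at ZT14, at least 75.1 times lower, with 33.1 to 39.3 CPM in the 4 clk856 libraries. RpI135, a subunit of RNA polymerase I, was at 5.70 and 11.4 CPM in nSyb at ZT2 and at 0 at ZT14, with 22.4 to 35.5 CPM in clk856. The glutaminyl-tRNA synthetase gene GlnRS was at 0 in nSyb at ZT2 and at 10.3 and 68.7 CPM at ZT14. The clk856 times of Zip48C, RpI135 and Top3alpha overlapped, so that these interactions were set by nSyb groups in which both libraries read 0. In AsnS, the asparagine synthetase gene, 1 nSyb library at ZT14 read 23.7 CPM and its replicate 0, and the part of such replicate differences in these interactions was not tested.

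Of 14 tested peptides of the clock network 3 had an interaction with p under 0.05, and 2 of 15 other brain peptides did, against 5.60% of all genes tested. Neuropeptide F (NPF) fell from 156 and 385 CPM to 19.2 and 58.4 CPM in clk856, a ratio of 6.96, and was at 21.9 and 0 CPM at ZT2 and 25.1 and 19.4 CPM at ZT14 in nSyb. Tachykinin (Tk) fell from 496 and 138 CPM to 24.7 and 82.5 CPM in clk856, and in nSyb was at 349 and 395 CPM at ZT2 and 554 and 546 CPM at ZT14. For both genes the clk856 times did not overlap, and the interactions were -3.73 (standard error 1.38) for NPF and -3.21 (standard error 0.73) for Tk. Leaving out 1 nSyb library at ZT2 gave -13.1 (without R1) and -2.73 (without R2) for NPF, and leaving out R1 of clk856 at ZT2 gave -1.91 for Tk.

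The diuretic hormone gene Dh44 was at 456 and 469 CPM at ZT2 and 532 and 569 CPM at ZT14 in clk856. In nSyb it was at 37.0 and 35.5 CPM at ZT2 and at 69.9 and 600 CPM at ZT14, so that R2 at ZT14 set its interaction of -2.96 (standard error 1.08). Without R2 of nSyb at ZT14 the interaction of Dh44 was -0.69. Myoinhibiting peptide (Mip) was at 612 and 559 CPM at ZT2 and 507 and 401 CPM at ZT14 in clk856, and at 37.1 and 168 CPM at ZT2 and 0 and 12.7 CPM at ZT14 in nSyb. Proctolin (Proc) fell from 217 and 160 CPM to 150 and 97.8 CPM in clk856 and rose from 70.1 and 45.4 CPM to 112 and 336 CPM in nSyb. The interaction was 3.61 (standard error 1.11) for Mip and -2.60 (standard error 0.73) for Proc. Without R2 of nSyb at ZT14 these values were 12.2 and -1.59, and without R2 of nSyb at ZT2 that of Mip was 2.15.

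Among ion channel and synaptic release genes, 5 had an interaction with p under 0.05. The potassium channel gene Shal was at 270 and 249 CPM at ZT2 and 218 and 208 CPM at ZT14 in clk856, and at 171 and 181 CPM at ZT2 and 232 and 205 CPM at ZT14 in nSyb (interaction -0.60, standard error 0.26). The potassium channel gene eag had an interaction of 1.05 (standard error 0.41). The vesicle fusion gene Syx1A and the calcium sensor gene Syt7 had interactions of -0.49 (standard error 0.20) and 0.53 (standard error 0.18). At p under 0.05 these were 2 of 20 tested potassium channels and 2 of 24 release genes, with 1 in each direction in both lists, against 5.60% of all genes. Of 12 sodium, calcium and leak channel genes tested, tipE (described above) was the 1 gene at that level, and interactions ranged from -0.46 to 1.31. The interactions of all tested potassium channels ranged from -1.62 to 6.45. The medians of the potassium channel and release lists, -0.02 and -0.04, lay near that of all genes, 0.01.

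Ribosomal protein and respiratory chain genes more often had a positive than a negative interaction, with medians close to 0, while 50.5% of all genes tested had a positive interaction and 5.60% had p under 0.05. Of 81 tested cytosolic ribosomal proteins 63 had a positive interaction, with a median of 0.16 and 0 genes with p under 0.05. Their medians were 0.06 in clk856 and -0.08 in nSyb. Without R1 of clk856 at ZT2, 41 of 81 were positive with a median of 0.003. Of 68 tested nuclear genes of the respiratory chain 58 had a positive interaction, with a median of 0.18 and 0 genes at that level, and 39 of 69 were positive without R1 of nSyb at ZT2 (median 0.04). Of 72 mitochondrial ribosomal proteins 52 were positive, with a median of 0.28 and 3 genes with p under 0.05 (mRpL12, mRpS18A and mRpS34, all positive).

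The mitochondrial ribosomal protein gene mRpS18A was at 101 and 85.7 CPM at ZT2 and 135 and 155 CPM at ZT14 in clk856. In nSyb it was at 182 and 185 CPM at ZT2 and 119 and 143 CPM at ZT14. The times did not overlap, and the interaction was 1.10 (standard error 0.33). The median of the mitochondrial ribosomal list lay between 0.14 and 0.45 over 20 alternatives, against -0.11 to 0.10 for all genes.

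In the remaining lists 0 genes passed the adjusted threshold with edgeR, and the counts at an unadjusted p under 0.05 are given against 5.60% of all genes tested. The proteasome list had 1 positive (Rpn13) and 1 negative (Rpn10) of 31 tested, and translation factors had 2 negative of 46, eIF2alpha and eEFSec. The initiation factor gene eIF2alpha was at 79.9 and 91.2 CPM at ZT2 and 67.4 and 63.5 CPM at ZT14 in clk856 and rose from 24.1 and 12.5 CPM to 60.8 and 55.0 CPM in nSyb. Among 14 clock kinases, phosphatases and ubiquitin ligase genes, CkIIalpha-i3 was the 1 gene with p under 0.05 (interaction -1.34, standard error 0.49). The list of 479 tested long noncoding RNA genes had 4 positive and 8 negative at that level, or 2.51% of the list. One of them, the dosage compensation RNA lncRNA:roX1, fell from 3446 and 3761 CPM to 2744 and 2692 CPM in clk856 and was at 3231 and 3720 CPM at ZT2 and 3887 and 3321 CPM at ZT14 in nSyb.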

How the data were processed

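The authors sorted GFP-positive neurons, made cDNA of poly(A) RNA with SMART-seq2 and libraries with Nextera XT, and aligned the reads with STAR to dm6. PCR duplicates were taken out with Picard. The counts of raw reads per gene that the authors deposited for every library were used unchanged. The deposited RPM values (the authors' scaling of these reads) and RPKM values (RPM per kilobase, by the authors) were not used. The counting program, strand setting and annotation release are not given in the sources used here. The submitters' processing notes name bcl2fastq 2.20, STAR and edgeR.

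Rows of unassigned reads were left out: reads outside genes (5.53% to 6.21% of the total in clk856, 7.55% to 8.94% in nSyb) and reads that fell on several genes (5.67% to 6.10%). Counts were tested with edgeR 4.0.16 in R 4.3.3 (4 groups, TMM, filterByExpr with a minimum count of 10, quasi-likelihood test, Benjamini-Hochberg adjustment, threshold 0.05). CPM were scaled by TMM library sizes. A floor of 3 reads was 0.355 to 0.622 CPM, and covers counting error only. Folds against a group at the floor are bounds against 3 reads per library. Single genes were permuted exactly over 36 labelings of time within population. Positions and shared exon bases came from Ensembl BDGP6.54 (dm6), where 17161 of 17868 gene names were found directly, 611 as older names and 96 not at all. Plots were drawn with matplotlib 3.10.9.

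Alternatives were other normalizations, filters and edgeR tests, DESeq2 1.42.0, limma 3.58.1 (voom with population weights), each population alone, replicate blocks and leaving out each library. A filter of over 3 reads in all 8 libraries was added after seeing the data. The tests were run on simulated data with known changes. The members and gene lists were chosen with earlier results of these data known. Named genes were those past the adjusted threshold, the 10 highest and 10 lowest interactions (unadjusted p under 0.05, mean of at least 10 CPM), the 10 with the largest time effects past p 0.05 in both populations in each direction, the core clock genes, and list members with interaction p under 0.05. Other heat shock and activity-regulated genes, Fis1, pdm3, CG9170 and ringer were named after their values were seen. A promoter motif search was not run, since no genome sequence was used.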

Additional observations from a re-analysis of the deposited data

Results flagged for a closer look

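Hsp68 was singled out because its change with time differed between the populations by a test of the difference itself. The interaction had an adjusted p of 0.0332 with edgeR's quasi-likelihood test over 8926 genes. Both clk856 libraries were lower at ZT14 than both at ZT2, and both nSyb libraries were higher. With 2 libraries per group no search for a single deviating library within a group was possible.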

How the results depend on the processing

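The normalization and filters changed no count of calls by over 1.5 times, except that the filter of over 3 reads in all 8 libraries left 1 clk856 time call and gave 1 mean time call. The likelihood ratio test gave 85 interaction, 8 clk856, 159 nSyb and 90 mean time calls, and 38 genes with the same and 35 with opposite directions at p under 0.05 in both populations. DESeq2 gave 178, 23, 418, 172, 39 and 50 for these quantities. The legacy quasi-likelihood test gave 0 clk856 and 1 nSyb call. Voom with population weights gave 0 interaction calls, 10 clk856 calls and 25 opposite genes. Each population alone gave 4 clk856 calls and 21 genes with the same direction. Leaving out 1 library gave 0 to 1 interaction calls, 0 to 2 clk856, 0 to 1 nSyb and 0 to 2 mean time calls, 2 to 28 genes with the same and 3 to 38 with opposite directions, and 47.5% to 51.1% of genes with the same direction. These fits tested more genes, because the smallest group then held 1 library, whose spread is assumed to equal that of the others. The lowest counts of same and opposite genes came without R1 of clk856 at ZT14, and the highest without R1 and R2, respectively, of nSyb at ZT2. Without R1 of nSyb at ZT14 the 1 interaction call was Dh44. The interaction turned to -0.95 for per without R1 of nSyb at ZT2, to -1.12 for vri without R2 of nSyb at ZT2, and to 0.37 for Clk and 1.35 for cry without R2 of nSyb at ZT14, and the mean time effect of mthl14 turned to 0.38 without R1 of clk856 at ZT2. Over the 8 fits without 1 library these values reached 2.66 (per), 6.0 (vri), -4.75 (Clk), -1.21 (cry) and -7.74 (mthl14) at the other end. The values for Clk, with nSyb at the floor and a standard error of 10.5, carry no direction. The causes were not tested. Hsp68 was the 1 named gene past the adjusted threshold for the interaction or the mean time effect, and it lost the threshold in 11 of 20 alternatives. Other named genes had no such pass to lose, and passed in 78 cases, mostly with DESeq2 or the likelihood ratio test. Replicate numbers did not pair the libraries (correlations of same-numbered deviations -0.02 to 0.03). With the replicate number as a block over all groups there were 0 interaction calls (Hsp68 adjusted p = 0.0622 with edgeR). A replicate block within each population gave 0 interaction calls (Hsp68 adjusted p = 0.344 with edgeR) and 1 clk856 call. Of the genes tested, 434 were at or under 3 reads in all nSyb libraries and 92 in all clk856 libraries, and no difference in time effect could be given for them.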
